A study of Mus musculus with 32 samples.

Results

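Sarcolipin (Sln) and 9 other genes of calcium handling in the muscle fibre (Pln, Atp2a1, Atp2a2, Ryr1, Casq1, Casq2, Pvalb, Cacna1s and Stim1) were followed through 32 RNA-seq libraries of mouse quadriceps. The 10 genes were taken by name from the 53801 gene IDs of the tables, each matched 1 ID, and all 10 were above 0 in every library. The set was chosen by the TPM of Sln in these same libraries, which differed between genotypes. All differences of Sln are therefore given as descriptions with no p-value. The tests reported for the other 9 genes come from a fit over 12817 genes.

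The libraries form 8 groups of 4 mice: wild type (WT) or Col6a2-/-, 5 or 25 weeks old, female or male. Col6a2 encodes a chain of collagen VI, a microfibrillar protein of the matrix around muscle fibres. Mutants were homozygous for the allele Col6a2tm1(KOMP)Vlcg, which came in a C57BL/6N resource strain and was crossed to C57BL/6J for 5 generations. WT mice came from the same breeding of heterozygous parents. The allele acts in every cell of the animal, and RNA was taken from cryosections of whole muscle, so fewer cells of a type and less RNA per cell cannot be told apart. Values are TPM (transcript abundance scaled for transcript length and to the same total in every library), so levels can be compared between genes, and SDs are between the mice of a group.

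In a resting fibre, calcium is held in the sarcoplasmic reticulum. An action potential moves the voltage sensor Cav1.1 (Cacna1s), which opens the release channel (Ryr1), and the pumps SERCA1 (Atp2a1, fast fibres) and SERCA2 (Atp2a2, slow fibres and heart) return the calcium. Sarcolipin and phospholamban (Pln) are small membrane proteins that bind and restrain these pumps. Calsequestrins (Casq1, mainly in fast fibres, and Casq2, in slow fibres and heart) buffer calcium inside the reticulum, parvalbumin (Pvalb) buffers it in the cytosol of fast fibres, and STIM1 senses an emptied store. In adult mice sarcolipin is known from atria and slow muscle and is low in fast limb muscle, while developing and diseased muscle carries more of it.

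Of the 9 genes other than Sln, 4 passed a limma test in at least 1 comparison, where single comparisons called up to 34.2% of all genes in the main fit. The share of all genes passing in at least 1 comparison was not computed, so the count is no result about the set. It only served to choose the promoters shown here. Each promoter is the 250 bases before the RefSeq transcription start (GRCm38.p6), with capitals marking E-boxes (CANNTG, which reads alike on both strands), the motif bound by MyoD-family factors.
Casq2, chr3:102086165-102086414, plus strand: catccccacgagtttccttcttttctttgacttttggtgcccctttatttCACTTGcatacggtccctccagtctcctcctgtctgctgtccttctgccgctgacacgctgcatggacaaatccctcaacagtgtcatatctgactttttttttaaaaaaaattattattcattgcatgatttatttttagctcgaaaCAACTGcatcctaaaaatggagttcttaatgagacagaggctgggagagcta
Casq1, chr1:172219896-172220145, minus strand: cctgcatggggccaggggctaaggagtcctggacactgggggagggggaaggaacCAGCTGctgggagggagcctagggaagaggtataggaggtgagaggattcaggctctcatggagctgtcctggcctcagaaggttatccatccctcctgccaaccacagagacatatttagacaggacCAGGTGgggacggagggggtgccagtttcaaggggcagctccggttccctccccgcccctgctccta
Pvalb, chr15:78206401-78206650, minus strand: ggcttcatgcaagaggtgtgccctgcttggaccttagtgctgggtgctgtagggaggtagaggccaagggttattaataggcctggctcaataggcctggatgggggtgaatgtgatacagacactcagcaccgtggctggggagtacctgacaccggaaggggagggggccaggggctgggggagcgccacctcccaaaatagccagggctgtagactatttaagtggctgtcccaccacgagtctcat
Pln, chr10:53337436-53337685, plus strand: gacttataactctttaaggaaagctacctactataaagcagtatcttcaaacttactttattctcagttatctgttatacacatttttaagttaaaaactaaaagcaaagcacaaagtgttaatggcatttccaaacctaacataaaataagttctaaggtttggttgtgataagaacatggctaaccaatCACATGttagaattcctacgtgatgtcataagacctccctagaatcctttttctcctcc
Casq2 and Casq1 each held 2 E-boxes, Pln held 1, and this Pvalb window held 0, while the window of a second RefSeq start of Pvalb held 1. A MEF2 motif, searched on both strands, was matched once in Casq2 and once in Pvalb, did not overlap an E-box, and was not matched in Casq1 or Pln. Of 32851 RefSeq promoters of the same length, 66.2% held an E-box and 2.92% the MEF2 motif. RefSeq promoters were matched for 8 of the 10 genes, Sln and Atp2a2 not among them.

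Col6a2 itself separated the genotypes: it lay between 6.60 and 51.2 TPM in the 16 WT libraries and between 0 and 0.171 TPM in the 16 Col6a2-/- libraries. The 7 skeletal muscle markers summed to 25481 to 45668 TPM per library, while the heart genes Nppa, Mybpc3 and Myl7 were listed at 0 in every library. At 5 weeks the muscle sum averaged 34509 ± 5165 TPM in Col6a2-/- and 40792 ± 3501 in WT (SD, n = 8). Of these 7 markers, several of them also on the fast-fibre list, 4 were lower in Col6a2-/- then (limma adjusted p under 0.05), where 2.14% of all genes were. At 25 weeks 0 were. Between 10399 and 12877 genes reached 1 TPM per library. Mitochondrial genes took 31.9 to 46.9% of all TPM and Rn7s genes 19.4 to 28.7%, which enters the scale of every other gene. The library of WT male 4 at 25 weeks stood apart in fibre type, with 10.1 TPM over 7 slow-fibre markers summed against 266 to 334 TPM in the other 3 mice of its group.

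Sln (chromosome 9, 53850164 to 53854560) was low in WT muscle and many times higher in Col6a2-/- muscle, far more so at 5 than at 25 weeks. At 5 weeks the WT females had 0.687, 5.53, 0.926 and 0.841 TPM of Sln and the WT males 0.944, 0.874, 1.47 and 0.471. The Col6a2-/- mice of that age had 75.7, 95.8, 55.0 and 16.9 TPM in females and 83.0, 61.2, 70.2 and 57.9 in males. The genotypes did not overlap: the lowest mutant, female 4, was above the highest WT mouse, female 2. Mean TPM was 43.9 times as high in the mutants (30.5 in females, 72.4 in males), and 72.6 times (74.4 in females) with WT female 2 left out.

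At 25 weeks the WT females had 3.78, 2.97, 1.24 and 1.93 TPM of Sln, and the WT males 0.568, 0.437, 0.242 and 0.141. Col6a2-/- females had 3.90, 4.42, 5.20 and 17.9 TPM and Col6a2-/- males 4.39, 3.30, 2.84 and 2.27. The genotypes stayed apart within each sex, in females by a narrow gap between 3.78 and 3.90 TPM, but mutant males overlapped WT females. The ratio of means was 3.92 (3.17 in females, 9.22 in males), the female ratio was 1.82 without Col6a2-/- female 4, and the male ratio was 7.70 without WT male 4. On the log2(TPM + 1) scale, which understates the change of a gene this low in WT, the genotype difference was 4.77 (SE 0.298) at 5 weeks and 1.40 (SE 0.298) at 25 weeks, and its change with age was -3.38 (SE 0.422). Over the other settings these ran from 4.60 to 5.63, from 1.26 to 2.19 and from -3.44 to -3.24.

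Ordered by group mean, Sln was highest in Col6a2-/- males (68.1 ± 11.2 TPM, SD, n = 4) and females (60.8 ± 33.7) at 5 weeks. Mutant females (7.87 ± 6.74) and males (3.20 ± 0.898) at 25 weeks followed. The 4 WT groups came last: females at 25 weeks (2.48 ± 1.12), females at 5 weeks (1.995 ± 2.36), males at 5 weeks (0.940 ± 0.411) and males at 25 weeks (0.347 ± 0.192). Each group overlapped its neighbour in this order. Without WT female 2 the 5-week WT females averaged 0.818 TPM and fell below the 5-week WT males, and without Col6a2-/- female 4 the 25-week mutant females averaged 4.51 TPM and kept their place. The step from 5-week to 25-week mutants overlapped through 1 female of each age, with 16.9 TPM at 5 weeks and 17.9 TPM at 25 weeks.

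**Figure D1:**
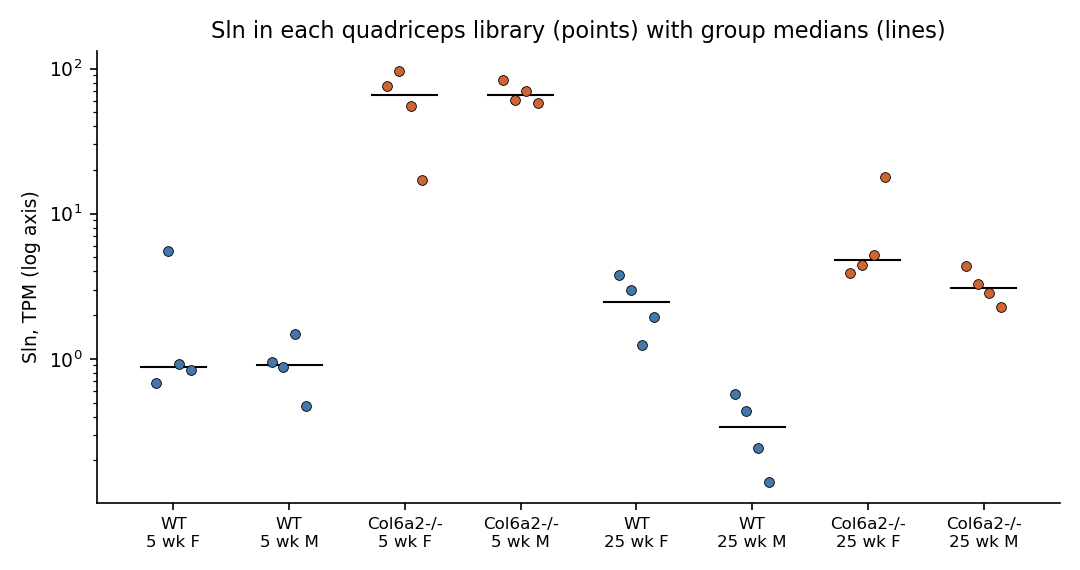
TPM of Sln on a log axis in each of the 32 libraries, by genotype, age in weeks (wk) and sex (F, M); lines are group medians of 4 libraries. The 8 Col6a2-/- libraries at 5 weeks lie between 16.9 and 95.8 TPM, all above the 16 WT libraries, whose highest is 5.53 TPM.

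In WT muscle the log2 difference of Sln between ages, 25 minus 5 weeks, was -0.047 (SE 0.298). It ran from -0.14 to 0.18 with single libraries left out and from -0.25 to 0.095 over the other settings. This value averages the sexes, whose means moved in opposite directions. WT males went from 0.940 to 0.347 TPM and WT females from 1.995 (0.818 without female 2) to 2.48 TPM, with the ages overlapping in each sex. In Col6a2-/- muscle the mean at 25 weeks was 0.0859 of that at 5 weeks, a log2 difference of -3.43 (SE 0.298). Read depth over the gene followed the TPM: the authors' coverage of Sln ran from 4.09 to 45.7 in WT and from 183 to 640 in mutants at 5 weeks, and from 1.19 to 20.9 and from 13.8 to 135 at 25 weeks, so the lowest WT values rest on few reads.

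The gene whose level over the 32 libraries was most like that of Sln was Myh3, the embryonic myosin heavy chain, with a Pearson r of 0.965 on log2(TPM + 1). Next came Myl4 (0.959), an embryonic and atrial myosin light chain, Krt18 (0.938), a keratin, Rrad (0.938), a GTPase that restrains calcium channels, and Chrng (0.932), the fetal acetylcholine receptor subunit. These libraries share the genotype and age groups, so the r values describe the pattern of the groups. Over the 8 group means the order was Blnk (0.994), Bcl2a1b (0.992), Rpl13-ps3 (0.990), Emb (0.990) and Myh3 (0.990). Myh3 averaged 12.3 ± 3.91 TPM in 5-week Col6a2-/- mice and 1.47 ± 0.292 in 5-week WT, and at 25 weeks 2.60 ± 1.30 and 1.10 ± 0.347 TPM (each SD over 8 mice).

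Markers of immature or regenerating fibres were higher beside Sln at 5 weeks and mostly not called at 25 weeks. Of 10 such markers 9 were called higher in Col6a2-/- at 5 weeks, where 23.2% of all genes were, and 2 at 25 weeks, where 4.47% were (called means a limma adjusted p under 0.05). Their sum ran from 118 to 257 TPM in 5-week mutants against 113 to 159 in WT, with Myh8 carrying most of it in both (111 ± 29.4 and 118 ± 13.5 TPM), and from 103 to 138 against 94.8 to 132 at 25 weeks. The 7 macrophage markers were all called higher at both ages, with sums of 99.1 to 343 TPM against 61.0 to 103 at 5 weeks and 109 to 204 against 41.1 to 113 at 25 weeks. The 5-week mutant with the lowest Sln, female 4, was also the lowest of the 8 in 9 of the 10 immature-fibre markers and in the macrophage sum. Their part in the Sln result was not tested.

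Sln is also a gene of slow fibres, so its values are given beside slow-fibre markers. The sum of 7 slow-fibre markers averaged 466 ± 235 TPM in mutants and 428 ± 308 in WT at 5 weeks, and 675 ± 395 and 527 ± 402 at 25 weeks, with 0 of 7 markers called at either age. Mutant male 1 at 5 weeks had 83.0 TPM of Sln, the most of any male, with a slow sum of only 85.1 TPM. Per 100 TPM of slow markers, a ratio chosen after the values were seen, Sln stood at 5.14 to 97.6 in mutants and 0.144 to 0.930 in WT at 5 weeks. At 25 weeks it stood at 0.594 to 1.13 in mutants and at 0.0854 to 0.376 in 7 of the 8 WT mice, the exception being WT male 4 (1.39) with its slow sum of 10.1 TPM.

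Within a group, the library with the least slow-marker RNA had the lowest Sln in 7 of the 8 groups, and that with the most had the highest Sln in 2 of 8. The WT female with the outlying 5.53 TPM at 5 weeks had the highest slow sum of all WT mice of that age (1039 TPM), and the mutant female with 17.9 TPM at 25 weeks the highest of all 32 (1582 TPM). The part of slow-fibre content in the Sln values was not tested.

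Phospholamban, the other SERCA-binding protein among the 10 genes, was expressed at the edge of detection and followed another course. Pln (chromosome 10, 53337667 to 53345987) ranged from 0.649 to 3.69 TPM over the 32 libraries and was higher in Col6a2-/- at 25 weeks, with no difference detected at 5 weeks. At 25 weeks WT females had 1.26, 1.65, 1.61 and 1.75 TPM and WT males 1.15, 1.85, 1.18 and 1.04. Col6a2-/- females of that age had 2.55, 3.69, 1.68 and 2.48 TPM and males 2.23, 1.70, 2.06 and 1.69. All 8 mutants were above the WT mean of their sex, although 1 WT mouse of each sex was above the lowest mutant. The log2 difference was 0.41 (SE 0.108, limma adjusted p = 0.0264).

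This call for Pln is close to the threshold. It was lost when any of 6 libraries was left out (WT female 1, WT male 3, Col6a2-/- females 1 and 2 or males 1 and 3, all at 25 weeks; limma adjusted p 0.0505 to 0.0717, difference 0.34 to 0.41) and under 4 of the other settings tried (0.0697 to 0.191), while the direction held in all. At 5 weeks the difference was -0.0081 (95% interval -0.23 to 0.21, limma adjusted p = 0.964), and the change of the genotype difference with age was 0.41 (limma adjusted p = 0.439), so the ages were not shown to differ. In Col6a2-/- muscle Pln rose from 1.24 ± 0.311 TPM at 5 weeks to 2.26 ± 0.677 at 25 weeks (SD, n = 8; log2 difference 0.53, SE 0.108, limma adjusted p = 0.000423), with all 8 older mice above the younger mean of their sex. In WT the age difference was 0.11 (95% interval -0.11 to 0.33), or 0.045 without WT male 3 of 5 weeks. Pln lies 23.2 megabases from Col6a2 on the same chromosome, so flanking sequence of the resource strain and the deletion cannot be told apart for it here. Smooth muscle, which also expresses Pln, gave summed markers of 60.0 to 127 TPM in mutants and 53.0 to 109 in WT at 25 weeks, with 0 of 7 called.

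At 25 weeks the median of all 12817 genes was 0.082, and 4.7% of them passed the genotype test, with 4.47% above and 0.234% below WT. Of the 9 genes other than Sln, Pln was the 1 called, a share of 11.1%. With libraries scaled by the median ratio of gene levels, 5.85% of all genes were called higher and 4.15% lower, Pln was lost, and Pvalb (-0.53, limma adjusted p = 0.00708) and Casq1 (-0.34, limma adjusted p = 0.0252) were called lower. Atp2a2 and Pvalb also had an unadjusted p under 0.05.

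Sln and Pln can be set against the pumps they bind, as ratios with no test. Sln stood at 3.43 ± 1.12 TPM per 100 TPM of Atp2a1 and Atp2a2 together in Col6a2-/- at 5 weeks and at 0.0660 ± 0.0673 in WT (SD, n = 8), or 0.0430 in WT without female 2. At 25 weeks the values were 0.289 ± 0.218 and 0.0690 ± 0.0625. Pln stood at 0.0670 ± 0.0192 and 0.0582 ± 0.0134 per 100 TPM at 5 weeks, and at 0.127 ± 0.0482 and 0.0748 ± 0.0206 at 25 weeks. These ratios do not depend on a single scaling factor per library. In WT muscle the transcripts of both inhibitors were thus far below those of the pumps, and in 5-week mutants Sln was well above Pln.

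Atp2a1 (chromosome 7, 126445858 to 126463108), the fast-fibre pump, made up nearly all SERCA RNA, at 1419.6 to 2375 TPM. At 5 weeks its mean was 2114 ± 180.2 TPM for WT mice and 1873 ± 367 for mutants (SD, n = 8), a log2 difference of -0.20 (95% interval -0.41 to 0.018, limma adjusted p = 0.167). At 25 weeks it averaged 1929 ± 295 and 1759.5 ± 184 TPM, a difference of -0.12 (interval -0.34 to 0.090, limma adjusted p = 0.553), or -0.056 without WT male 4. The groups overlapped in both sexes at both ages.

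Atp2a2 (chromosome 5, 122453513 to 122502225), the slow-fibre pump, varied widely between mice of a group and did not pass between genotypes in the main fit. At 25 weeks WT females had 56.9, 55.3, 30.4 and 51.3 TPM and WT males 19.9, 24.4, 18.9 and 4.82. Col6a2-/- females had 44.7, 48.7, 63.6 and 99.4 TPM and males 41.3, 46.7, 38.4 and 29.8. The mutant males were all above the WT males, while the females overlapped. The log2 difference of 0.85 (SE 0.275) did not pass in the main fit (limma adjusted p = 0.0723). Over the other settings limma adjusted p was 0.0441 to 0.181, and 1 of them, a fit with the replicate number as a block, passed (0.0441). Without WT male 4 the difference was 0.61 (limma adjusted p = 0.148). At 5 weeks it was 0.37 (SE 0.275, limma adjusted p = 0.33), or 0.22 and 0.52 without WT male 4 or 2 of that age.

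Atp2a2 followed the slow-fibre markers closely. The library with the highest slow sum had the most Atp2a2 in 7 of the 8 groups and that with the lowest had the least in 8 of 8, from 4.82 TPM beside a sum of 10.1 in WT male 4 at 25 weeks to 99.4 TPM beside 1582 in mutant female 4. Per 100 TPM of slow markers Atp2a2 had a median of 8.00 in mutants (6.28 to 10.5) and 7.14 in WT at 25 weeks (4.70 to 7.46 in 7 mice, and 47.5 in WT male 4). At 5 weeks Atp2a2 had a median of 6.84 in mutants (5.54 to 10.9 in 7 mice, and 32.2 in mutant male 1) and of 6.91 in WT (5.44 to 18.3). As a share of both pumps it was 2.79 ± 0.849% in mutants and 1.66 ± 0.881% in WT at 25 weeks, and at 5 weeks 1.92 ± 0.843% and 1.32 ± 0.609% (SD over 8 mice).

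**Figure D2:**
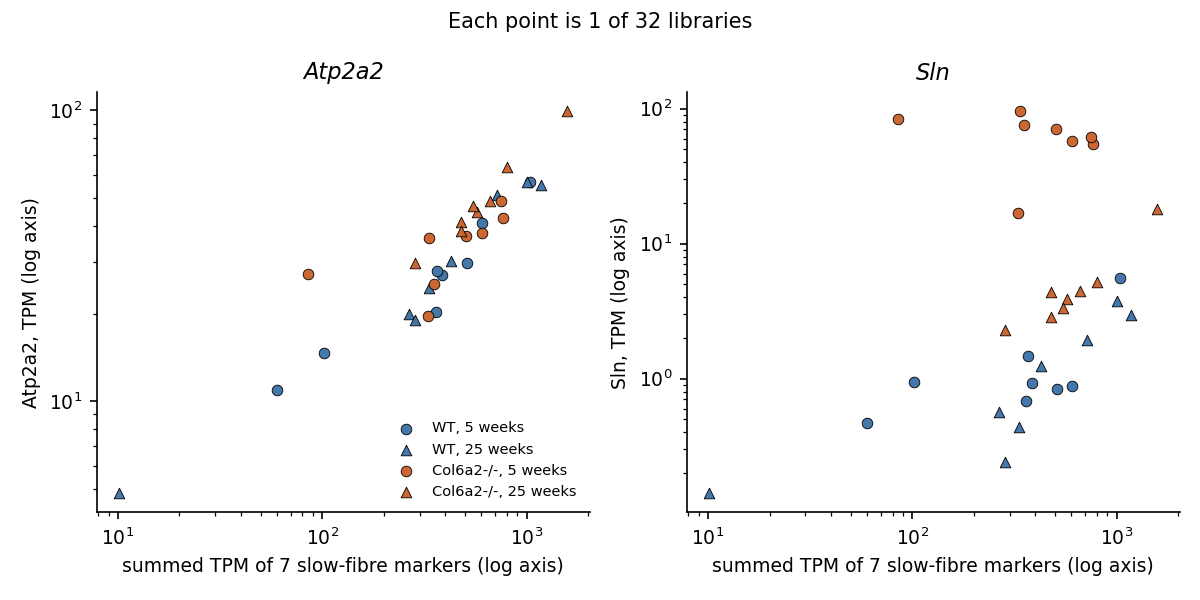
TPM of Atp2a2 (left) and Sln (right) against the summed TPM of 7 slow-fibre markers, all on log axes; each point is 1 of 32 libraries, coloured by genotype, with circles for 5 and triangles for 25 weeks. Atp2a2 lies along 1 band apart from mutant male 1 of 5 weeks (sum 85.1), while Sln of the 5-week mutants (16.9 to 95.8 TPM) lies above the other libraries of similar slow-marker sum.

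Among the calcium buffers, Casq2 was higher and Pvalb lower in Col6a2-/- muscle at 5 weeks. Casq2 (chromosome 3, 102086415 to 102146514) stood at 22.1, 25.3, 13.6 and 18.1 TPM in WT females and 16.1, 22.9, 10.9 and 18.9 in WT males. Mutant females had 24.3, 38.1, 40.6 and 33.4 TPM and mutant males 28.9, 32.7, 33.9 and 26.3. Every mutant was above the WT mean of its sex, the males did not overlap, and in females 1 mutant (24.3 TPM) fell below the highest WT mouse (25.3 TPM). Mean TPM was 1.75 times as high, and the log2 difference was 0.80 (SE 0.242, limma adjusted p = 0.0166). With median-ratio scaling it was 0.61 and no longer passed (limma adjusted p = 0.0753).

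At 25 weeks no Casq2 difference was detected: WT averaged 16.1 ± 7.69 TPM and Col6a2-/- 14.9 ± 5.94 (SD, n = 8), a log2 difference of -0.017 (95% interval -0.51 to 0.48, limma adjusted p = 0.98), and -0.28 (limma adjusted p = 0.407) without WT male 4. The change between ages was -0.82 (SE 0.342) and did not pass (limma adjusted p = 0.558), though it did without WT male 4 of 25 weeks, whose 2.50 TPM was the lowest Casq2 of all libraries (-1.08, limma adjusted p = 0.0449). Slow-fibre markers, which share the fibre type of Casq2, were not called at 5 weeks (0 of 7). Of the 7 heart markers 2 were expressed enough to be tested at 5 weeks and 1 was called higher, Tnnt2, also a gene of immature fibres, at 6.33 ± 2.07 TPM in mutants and 1.16 ± 0.295 in WT. At 25 weeks 1 of the 2 was also called higher, with Tnnt2 at 1.52 ± 0.545 TPM in mutants and 0.782 ± 0.210 in WT. The part of slow-fibre and heart markers in the Casq2 result was not tested.

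Pvalb (chromosome 15, 78191114 to 78206400) was the most abundant of the 10 transcripts. At 5 weeks it stood at 5101, 7079, 6206 and 6125 TPM in WT females and 8402, 6302, 8397 and 8419.8 in WT males. Mutant females had 4599, 7892, 3456 and 4071 TPM and mutant males 6341, 3964, 5577 and 4226. Of the 8 mutants 7 were below the WT mean of their sex, and the groups overlapped through mutant female 2 (7892 TPM) and WT male 2 (6302 TPM). The log2 difference was -0.51 (SE 0.154, limma adjusted p = 0.0161). With quantile normalization it was -0.33 and no longer passed (limma adjusted p = 0.0945).

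At 25 weeks Pvalb averaged 3450.0 ± 652 TPM for mutants and 4609 ± 1108 for WT mice (SD, n = 8), with all 8 mutants below the WT mean of their sex. That difference of -0.41 (95% interval -0.72 to -0.094) did not pass (limma adjusted p = 0.127; -0.30 and 0.241 without WT male 4), and the ages were not shown to differ (0.10, SE 0.217, limma adjusted p = 0.983; 0.020 to 0.22 with single libraries left out). Fast-fibre markers, which share the fibre type of Pvalb, were called lower at 5 weeks for 5 of 7, where 2.14% of all genes were (11.5% with median-ratio scaling). Their sums were 21746 to 36698 TPM in mutants and 29567 to 39667 in WT. At 25 weeks 0 of 7 were called lower, where 0.234% of all genes were. The part of fast-fibre markers in the Pvalb result was not tested.

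Casq1 (chromosome 1, 172209894 to 172219868), the main calsequestrin of fast fibres, did not pass between genotypes at either age. Its log2 differences were -0.15 (95% interval -0.43 to 0.13, limma adjusted p = 0.42) at 5 weeks, with -0.27 and -0.053 when Col6a2-/- female 2 or 3 was left out, and -0.21 (interval -0.49 to 0.061, limma adjusted p = 0.395) at 25 weeks, the latter -0.14 without WT male 4. As a share of both calsequestrins, Casq2 was 2.52 ± 1.003% in mutants and 1.30 ± 0.468% in WT at 5 weeks, and at 25 weeks 2.22 ± 0.933% and 2.10 ± 0.921% (SD over 8 mice).

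Between genotypes at 5 weeks, 25.4% of all genes tested were called, 23.2% higher and 2.14% lower in Col6a2-/-, and the median difference of all genes was 0.15. Of the 9 genes other than Sln, 2 (22.2%) were called, near that background, with a median difference of -0.15. Relative to the median of all genes, Casq2 differed by 0.65, Pvalb by -0.66, Atp2a1 by -0.34, Ryr1 by -0.34, Cacna1s by -0.33 and Casq1 by -0.29. When libraries were instead scaled by that median ratio, which brought the median of all genes to 0.00062, the calls among the 9 genes went from 1 higher and 1 lower to 0 higher and 5 lower. In that setting Casq2 was lost (0.61, limma adjusted p = 0.0753) and Atp2a1, Ryr1, Cacna1s and Casq1 were added as lower (-0.39 to -0.34, limma adjusted p 0.00165 to 0.021), beside 24.2% of all genes called, 12.7% higher and 11.5% lower.

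**Figure D3:**
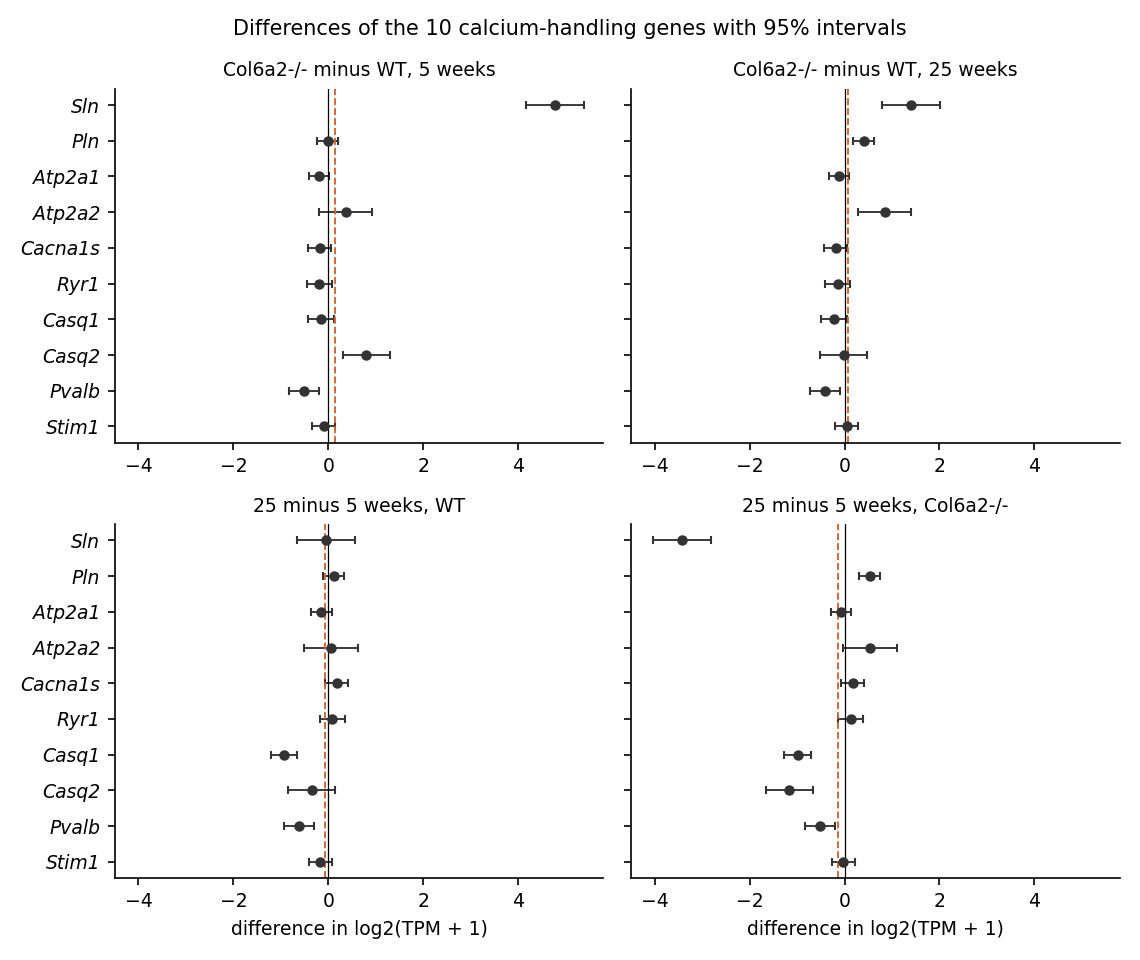
Differences in log2(TPM + 1) for the 10 genes with 95% intervals from limma, for genotype at each age (top) and age in each genotype (bottom); the dashed line is the median of 12817 genes. Sln stands apart at 4.77 for genotype at 5 weeks and -3.43 for age in Col6a2-/-, while the other 9 genes lie between -1.16 and 0.85 in all 4 panels.

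The genes of the trigger and release step did not pass on the TPM scale at either age. Cacna1s (chromosome 1, 136052750 to 136119822) had medians of 88.5 TPM in WT (67.0 to 103) and 78.8 in Col6a2-/- (51.5 to 96.3) at 5 weeks, and 98.4 (73.7 to 116) and 85.8 (74.8 to 97.3) at 25 weeks. Its log2 differences were -0.18 at both ages (95% interval -0.43 to 0.061, limma adjusted p 0.257 and 0.417), but at 5 weeks it passed as lower with median-ratio scaling and with quantile normalization (-0.29, limma adjusted p = 0.0437). Ryr1 (chromosome 7, 29003344 to 29125179) had medians of 72.0 TPM (59.6 to 80.4) and 66.2 (39.8 to 85.1) at 5 weeks, and 77.9 (60.5 to 97.1) and 68.0 (50.7 to 83.0) at 25 weeks. Differences for Ryr1 were -0.19 (interval -0.46 to 0.070, limma adjusted p = 0.267) and -0.15 (interval -0.41 to 0.12, limma adjusted p = 0.574). Without Col6a2-/- male 2 of 5 weeks the 5-week differences were -0.10 for both Cacna1s and Ryr1, and without WT male 4 the 25-week difference of Ryr1 was -0.073.

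Both genes overlapped between genotypes in each sex at each age. Stim1 (chromosome 7, 102267806 to 102437319), the store sensor, had medians of 19.4 TPM in WT (16.1 to 23.5) and 18.1 in Col6a2-/- (14.3 to 20.6) at 5 weeks, and 18.5 (12.3 to 20.7) and 17.5 (12.3 to 21.3) at 25 weeks. Its differences were -0.094 (95% interval -0.34 to 0.15, limma adjusted p = 0.578) and 0.048 (interval -0.20 to 0.29, limma adjusted p = 0.868), and became -0.047 without Col6a2-/- male 4 at 5 weeks and -0.038 without WT female 4 at 25 weeks. The intervals of these 3 genes leave room for decreases of up to 0.46 on the log2 scale.

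From 5 to 25 weeks the buffers Casq1 and Pvalb fell in both genotypes. Casq1 stood at 1065, 1356, 1315 and 1396 TPM in WT females and 1871, 1499, 1562 and 1626 in WT males at 5 weeks, and at 709, 938, 754 and 763 and 688, 637, 653 and 1014 TPM at 25 weeks. In Col6a2-/- it stood at 1294, 2023, 817 and 1042 TPM in females and 1567, 1215, 1667 and 1164 in males at 5 weeks, and at 523, 665, 651 and 724 and 783, 605, 716 and 607 TPM at 25 weeks. The ages did not overlap in either genotype. The log2 difference was -0.93 (SE 0.135, limma adjusted p = 1.24e-05) in WT and -0.99 (SE 0.135, limma adjusted p = 2.1e-06) in Col6a2-/-, means of 0.527 and 0.489 of the younger level.

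On the log2 scale Pvalb dropped by 0.61 in WT (SE 0.154, limma adjusted p = 0.0051) and by 0.51 in Col6a2-/- (limma adjusted p = 0.0111), with all 8 older mice of each genotype below the younger mean of their sex. Casq2 fell in Col6a2-/- from 32.3 ± 5.57 to 14.9 ± 5.94 TPM (SD, n = 8; -1.16, SE 0.242, limma adjusted p = 0.000516), with no overlap between ages. In WT it averaged 18.5 ± 4.88 and 16.1 ± 7.69 TPM, a difference of -0.35 (95% interval -0.84 to 0.15, limma adjusted p = 0.349), and of -0.082 (limma adjusted p = 0.794) without WT male 4 of 25 weeks.

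Of the 9 genes other than Sln, 2 were called in WT, Casq1 and Pvalb, both lower, where 19.8% of all genes were called, 4.47% higher and 15.3% lower. In Col6a2-/- 4 were called, Casq1, Pvalb and Casq2 lower and Pln higher, where 34.2% of all genes were called, 5.41% higher and 28.8% lower. With median-ratio scaling Cacna1s was added as higher in WT (0.28, limma adjusted p = 0.0390), beside 28.6% of all genes called, 13.3% higher and 15.2% lower. In Col6a2-/- that scaling added Cacna1s (0.35, limma adjusted p = 0.00841) and Ryr1 (0.31, limma adjusted p = 0.0496) as higher, beside 34.5% of all genes called, 16.4% higher and 18.1% lower. Atp2a2 did not pass for age in Col6a2-/- in the main fit (0.54, SE 0.275, limma adjusted p = 0.131). It passed in a fit of the Col6a2-/- groups alone (limma adjusted p = 0.0415), where the share of all genes called was not computed. The genotype-by-age test called 0.492% of all genes and 0 of these 9 in limma, with Casq2 and Pln at an unadjusted p under 0.05. The age and genotype comparisons share libraries.

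**Figure D4:**
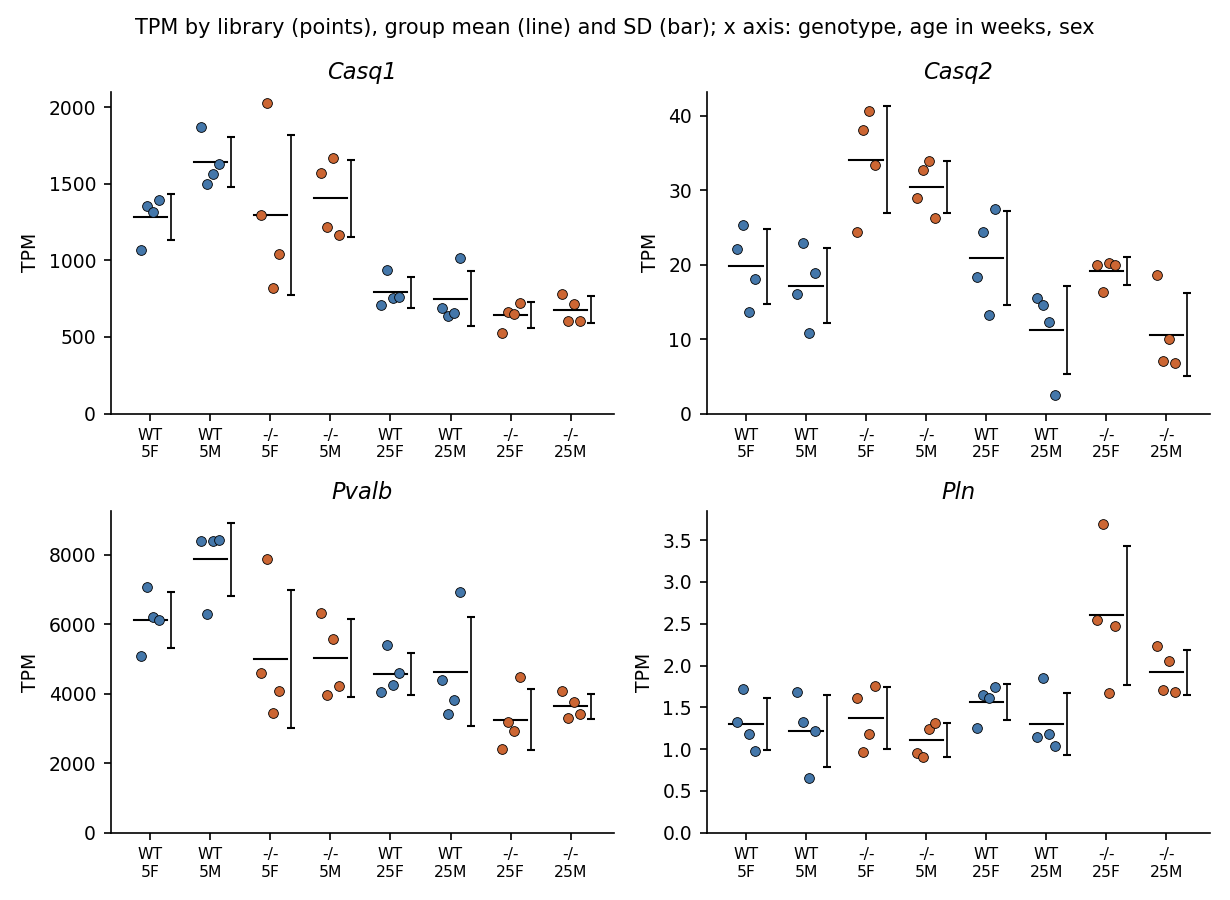
TPM of Casq1, Casq2, Pvalb and Pln in each library (points), with the group mean (line) and SD (bar, n = 4), by genotype (-/- is Col6a2-/-), age in weeks and sex. Casq1 drops between ages in both genotypes, Casq2 is highest in the 5-week mutants (24.3 to 40.6 TPM), and Pln is highest in the 25-week mutants (1.68 to 3.69 TPM).

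Sex did not give a call for any of the 9 genes other than Sln in limma (0 of 9, against 3.05% of all genes, 1.87% higher and 1.18% lower in males). Of the 9, 3 had an unadjusted p under 0.05. Males minus females, these were -0.56 for Casq2 (limma adjusted p = 0.0713), -0.63 for Atp2a2 (limma adjusted p = 0.0801) and -0.17 for Pln (limma adjusted p = 0.326). For Sln the difference was -0.54 (SE 0.211), and -0.92 to -0.50 over the other settings. Averaged over genotype and age on the log2 scale, all 4 genes were lower in males. In 5-week Col6a2-/- mice, however, mean TPM was higher in males for Sln (68.1 against 60.8) and Atp2a2 (37.7 against 31). The slow-fibre marker sum was lower in males at 25 weeks (224 ± 145 against 831 ± 330 TPM in WT, with 266 to 334 in the 3 males other than male 4, 447 ± 114 against 904 ± 461 in Col6a2-/-; SD, n = 4) and in WT at 5 weeks (283 ± 254 against 573 ± 318), but not in Col6a2-/- at 5 weeks (486 ± 285 against 446 ± 216). Its part in these differences was not tested. Single libraries tip these calls. Casq2 passed without any 1 of 4 libraries of 25 weeks, WT female 3, WT males 1 and 2 or Col6a2-/- male 1. Its limma adjusted p was then 0.0272 to 0.0498. Atp2a2 passed without WT male 2 of 5 weeks (limma adjusted p = 0.0357). Other omissions went the other way, to -0.43 for Casq2 and -0.51 for Atp2a2 without WT male 4 of 25 weeks. Over all omissions limma adjusted p reached 0.121 for Casq2 and 0.144 for Atp2a2. The Sln difference was -0.67 without Col6a2-/- female 4 and -0.43 without WT female 2, both of 5 weeks.

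The genotype effect was not shown to differ between the sexes for any of the 9 genes other than Sln (0 called in limma, 0.0156% of all genes called). Atp2a2 alone had an unadjusted p under 0.05 there, with a genotype difference larger in males by 0.91 (SE 0.389, limma adjusted p = 0.9998). For Atp2a2 it was 0.67 without WT male 4 of 25 weeks. For Sln that difference was 0.62 (SE 0.422), or 0.39 without WT female 2 and 0.37 without Col6a2-/- female 4, both of 5 weeks. Over the other settings it ran from 0.58 to 1.24.

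A wider list of 58 calcium genes, 53 of them expressed enough to be tested, put the 10 genes in context. At 5 weeks 10 were called higher and 5 lower in Col6a2-/-, 28.3% of the 53 beside 25.4% of all genes, with a median difference of 0.039 beside 0.15. By direction, 23.2% of all genes were higher and 2.14% lower. Of 9 mitochondrial calcium genes 5 were higher and 0 lower, led by Mcub, a subunit that dampens the uniporter (1.78 ± 0.688 against 0.601 ± 0.220 TPM, log2 difference 0.77, limma adjusted p = 3.91e-05). Of 19 genes of the triad, the junction where the voltage sensor meets the release channel, 3 were higher and 4 lower. Rrad was the strongest of the former (20.2 ± 10.1 against 0.971 ± 0.481 TPM, 3.26) and Trdn, the triadin that anchors calsequestrin to the release channel, of the latter (181 ± 35.4 against 235 ± 33.3 TPM, -0.38, limma adjusted p = 0.0121).

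Of 7 genes of calcium entry and export 1 was higher at 5 weeks, the plasma membrane pump Atp2b1 (0.26, limma adjusted p = 0.0389), where 23.2% of all genes were. Of 17 genes of calmodulin, calcineurin and CaMK signalling, the kinase isoform Camk2d was higher (0.50, limma adjusted p = 0.00328) and its relative Camk2a was lower (-0.43, limma adjusted p = 0.0078). Myoregulin (Mrln), another SERCA-binding protein, averaged 28.2 ± 7.54 TPM in WT and 24.5 ± 3.51 in Col6a2-/- (-0.17, 95% interval -0.48 to 0.14, limma adjusted p = 0.422). At 25 weeks Mrln averaged 40.0 ± 8.71 and 29.9 ± 7.29 TPM (-0.41, limma adjusted p = 0.117), in the direction opposite to Sln and Pln.

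At 25 weeks 4 of the 53 were called higher and 0 lower, 7.55% beside 4.7% of all genes (4.47% higher and 0.234% lower). The count called ran from 1 to 8 with single libraries left out and from 1 to 18 over the other settings. The share of all genes called was not computed for most of these. The 4 were Rrad (1.20), Mcub (0.48), Atp2b4, a plasma membrane pump (0.44), and S100a1, a calcium sensor of the release channel (0.26). Their limma adjusted p was 0.00617 to 0.0471, and S100a1 was named after its values were seen. With age 5 were higher and 8 lower in WT, 24.5% beside 19.8% of all genes (4.47% higher and 15.3% lower). In Col6a2-/- 4 were higher and 14 lower, 34.0% beside 34.2% of all genes (5.41% higher and 28.8% lower). The split of these calls depends on the scale: with median-ratio scaling they became 6 higher and 18 lower at 5 weeks, where 12.7% of all genes were higher and 11.5% lower. At 25 weeks they became 3 higher and 15 lower, where 5.85% and 4.15% of all genes were. With age they became 11 higher and 7 lower in WT, where 13.3% and 15.2% of all genes were, and 13 higher and 10 lower in Col6a2-/-, where 16.4% and 18.1% were.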

How the data were processed

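RNA-seq of quadriceps was deposited as 1 table per library, with TPM, FPKM and coverage per gene computed by the authors (columns named per the file headers). The submitters' processing notes name FastQC, MultiQC, Trimmomatic, HISAT2, SAMtools and StringTie and the builds GRCm38 and mm10, with no role or order. Read counts were not used here, so sequencing depth is unknown. TPM of rows with 1 gene ID were summed; FPKM were not used, and coverage only describes signal over the 10 genes.

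The 12817 genes that reached 1 TPM in 4 or more libraries were fitted as log2(TPM + 1) over 8 group means in limma 3.58.1 (R 4.3.3; empirical Bayes with trend), with Benjamini-Hochberg adjustment and a threshold of 0.05; fold changes on this scale are understated for low genes. The script was tested on simulated data. Each library is a separate mouse per the labels. The 10 genes and all lists were chosen with earlier results of these data known. Beyond the 10 genes, those named are Col6a2, markers, and the 5 most like Sln or Pln. The strongest called in each direction of each calcium list are also named. Mrln was named as another SERCA-binding protein and was not called, and S100a1 was named after its values were seen. Alternatives were another pseudocount, 2 filters, 3 scalings, a fit of the compared groups alone, a replicate block, and each of 32 libraries left out.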

Additional observations from a re-analysis of the deposited data

Results flagged for a closer look

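In 8 of 80 combinations of gene and group, 1 of the 4 mice lay far from the other 3 by Dixon's criterion (critical value 0.829), which chance alone meets in about 1 in 20 groups. For Sln, WT female 2 at 5 weeks had 5.53 TPM where the next highest had 0.926, and Col6a2-/- female 4 at 25 weeks had 17.9 TPM where the next had 5.20. WT male 4 at 25 weeks was high in Atp2a1 (2334 TPM, next 1627) and in Casq1 (1014 TPM, next 688). WT female 4 at 25 weeks was low in Cacna1s (85.8 TPM, next 114) and in Stim1 (12.3 TPM, next 19.9). Pvalb was low in WT male 2 at 5 weeks (6302 TPM, next 8397), and Casq2 was low in Col6a2-/- female 2 at 25 weeks (16.3 TPM, next 19.9).

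The genotype difference of Sln itself differed between the ages, by -3.38 on the log2(TPM + 1) scale, in the gene that was chosen for this pattern.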

How the results depend on the processing

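Depth is unknown, and the values of Pln and of Sln in WT rest on little coverage. Over 38 to 40 alternatives to each of 70 differences of the 10 genes, 2637 of 2763 values kept direction and side of the threshold. Of the rest, 12 lost a call, 22 gained one and 92 reversed, and the 18 results with a reversal had main differences of at most 0.127. These counts include the 7 differences of Sln, on which the set was chosen. They were not made without it and are no support for the Sln result.

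The count of the 10 genes called between genotypes at 5 weeks became 6 with median-ratio scaling (5 without Sln), and that of the calcium list 24. At 25 weeks the 9 genes other than Sln gave 0 calls with no filter and with a filter at 5 TPM, which left 8 of them. They also gave 0 after rescaling without mitochondrial and Rn7s genes, and with quantile normalization. The list gave 1 with no filter, 18 with median-ratio scaling (where 10% of all genes were called), 8 with quantile normalization and 8 with the compared groups alone. Outside the main fit, the share of all genes called was computed only with median-ratio scaling, for genotype at each age and age in each genotype. The other counts in this section, also with libraries left out or a replicate block, therefore cannot be read against that share. For age in WT the list gave 20 with quantile normalization. For sex 1 gene was called with median-ratio scaling and with quantile normalization (Casq2). Pvalb at 5 weeks was lost with quantile normalization (-0.33, limma adjusted p = 0.0945) and Cacna1s added as lower (-0.29, 0.0437). The cause was not tested.

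With each library left out, the 10 genes gave 3 to 3 calls at 5 weeks, 1 to 2 at 25 weeks, 1 to 2 for genotype by age, 2 to 2 for age in WT, 5 to 5 for age in Col6a2-/-, 0 to 1 for sex and 0 to 0 for genotype by sex. These include Sln, on which the set was chosen; without it the 9 other genes gave 2 to 2, 0 to 1, 0 to 1, 2 to 2, 4 to 4, 0 to 1 and 0 to 0 in the same order, 5 with median-ratio scaling at 5 weeks, and 2, 2, 0, 2, 4, 1 and 0 with the replicate block. The list gave 12 to 18, 1 to 8, (for age) 11 to 17 in WT and 14 to 20 in Col6a2-/-.

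Replicate numbers were not taken as pairs: same-numbered libraries had a median correlation of deviations of 0.0322 (-0.34 to 0.349, 35 of 112 above 0.1) and others of -0.0132 (65 of 336), and 10 of 32 correlated best with their own number. With the replicate block the 10 genes gave 3, 3, 1, 2, 5, 1 and 0 calls for the same comparisons, adding Atp2a2 at 25 weeks (0.85, limma adjusted p = 0.0441) and for sex (-0.63, 0.0472); the list gave 16, 4, 12 and 18.

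Small differences reversed. With pseudocount 0.1 Casq2 at 25 weeks was 0.0017. With rescaling Stim1 was -0.019 at 25 weeks, 0.034 for age in Col6a2-/- and 0.018 for sex, and genotype by age was -0.063 for Cacna1s and -0.016 for Ryr1. With median-ratio scaling Stim1 was -0.066 at 25 weeks and 0.14 for age in Col6a2-/-, Atp2a1 0.11 for the latter, and Casq1 0.0059 for genotype by age and -0.033 by sex. With quantile normalization Stim1 was -0.010 and 0.11, Sln 0.095 for age in WT, Pvalb -0.0018 by age and 0.079 by sex, Casq1 -0.13 and Atp2a1 -0.022 by sex. Leaving out single libraries gave -0.090 to 0.29 for Atp2a2 and -0.14 to 0.18 for Sln (age in WT), -0.28 to 0.092 for Casq2 and -0.038 to 0.13 for Stim1 (25 weeks), -0.076 to 0.041 for Pln (5 weeks) and -0.076 to 0.049 for Stim1 (age in Col6a2-/-). Genotype by age gave -0.080 to 0.069 for Cacna1s, -0.16 to 0.056 for Casq1 and -0.046 to 0.13 for Ryr1. Genotype by sex gave -0.0063 to 0.14 for Cacna1s, -0.093 to 0.12 for Casq1, -0.17 to 0.20 for Casq2, -0.12 to 0.076 for Pvalb and -0.022 to 0.14 for Stim1.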

Other observations

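Over the 32 libraries the genes most like Pln on log2(TPM + 1) were Clip4 (Pearson r 0.709), Casr, the calcium-sensing receptor (0.707), Il15, a cytokine made by muscle (0.704), Art5 (0.700) and H2-Ke6 (0.696). Casr averaged 0.636 TPM in Col6a2-/- and 0.577 in WT at 5 weeks, and 2.13 and 1.27 TPM at 25 weeks. These r values describe libraries that share the same groups.

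Markers of other cell types were counted against the 23.2% of all genes called higher in Col6a2-/- at 5 weeks and 4.47% at 25 weeks. Of 6 fibroblast markers 4 were called higher at both ages, and of 5 endothelial markers 3 at 5 weeks and 0 at 25 weeks (limma). Of 6 adipocyte and 5 erythrocyte markers 0 were called at either age in limma.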
